A study of Danio rerio with 12 samples.

Results

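The expression of 8 muscle genes was followed in zebrafish (Danio rerio) embryos in which the semaphorin Sema6A or its receptor PlexinA2 had been targeted. They were XIRP2, NEB and nebl of the sarcomere and its anchorage, RYR1 and CHRND of excitation, PYGM of glycogen use, and the transcription factor genes MEF2C and MEF2D. Rows of the deposited table were taken by Ensembl gene identifier, which gave 11 of 5134 rows for these 8 genes: RYR1, PYGM and MEF2C each had 2 rows and the others 1. The genes were picked with earlier results of these arrays in view, among them their differences in the 3 comparisons below. Differences of the 11 rows are therefore given as a description. How many of them passed in the fit over all rows is stated beside the share of all rows that passed, and these counts support nothing, since the genes were selected on the same values.

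All embryos were of the rx3:GFP line, grown at 25 °C to a stage labelled 18 somites in the growth protocol and 18 hours post-fertilization elsewhere in the labels. The sema6A morphants had received an antisense morpholino (an oligonucleotide that blocks translation or splicing of its target) against Semaphorin6A at the one-cell stage, and the plexinA2 morphants one against PlexinA2. The controls are labelled wild-type and titled UIC, and the labels name no injection for them. Each group had 4 one-colour NimbleGen arrays of total RNA, called biological replicates in the labels. The labels do not say how many embryos were pooled in a sample or whether clutches differed. P-values measure the spread between these samples only. The rows of the targeted genes were not analysed here, so the effect of the morpholinos on them was not checked. A morpholino acts for a limited time and may leave part of its target's product in place.

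Skeletal muscle contracts when acetylcholine opens its receptor on the muscle membrane and the resulting depolarisation releases calcium through the ryanodine receptor of the sarcoplasmic reticulum. Calcium then frees actin for myosin in the sarcomere, whose thin filaments and Z discs are organised by giant proteins of the nebulin and titin families, and glycogen phosphorylase supplies fuel. In the zebrafish, muscle fibres differentiate in the somites while new somites are still forming at the tail, and MEF2 factors drive much of the late fibre programme. The labels name embryos and no dissection, so differences in the number of muscle cells and in RNA per muscle cell cannot be told apart, in either direction.

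No 2 arrays held identical values. Averaged over its 11 partners, an array's rank correlation ran from 0.835 (control replicate 2) to 0.932. In the muscle rows, 2 arrays stood apart. Control replicate 4 was the highest control in 8 of the 10 rows other than nebl, against 28% of all 5134 rows, and sema6A replicate 1 was the lowest sema6A array in 8 of the 10, against 39% of all rows. Over all rows, control replicate 4 had a mean rank correlation of 0.941 with the plexinA2 arrays and 0.891 with the other controls. Control replicates 1 to 3 were also slightly closer to the plexinA2 arrays (0.922, 0.844 and 0.910) than to the other controls (0.911, 0.843 and 0.903). With the sema6A arrays, control replicates 1 to 4 had 0.912, 0.820, 0.921 and 0.884, so control replicate 3 was closest to the sema6A arrays. In nebl, control replicate 4 did not resemble the plexinA2 arrays and was the lowest control. What sets this array apart, its label included, was not tested, and every control mean and SD given with all arrays includes it. The group differences of the muscle rows are also given without these arrays, a choice made after the values were seen.

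**Figure D1:**
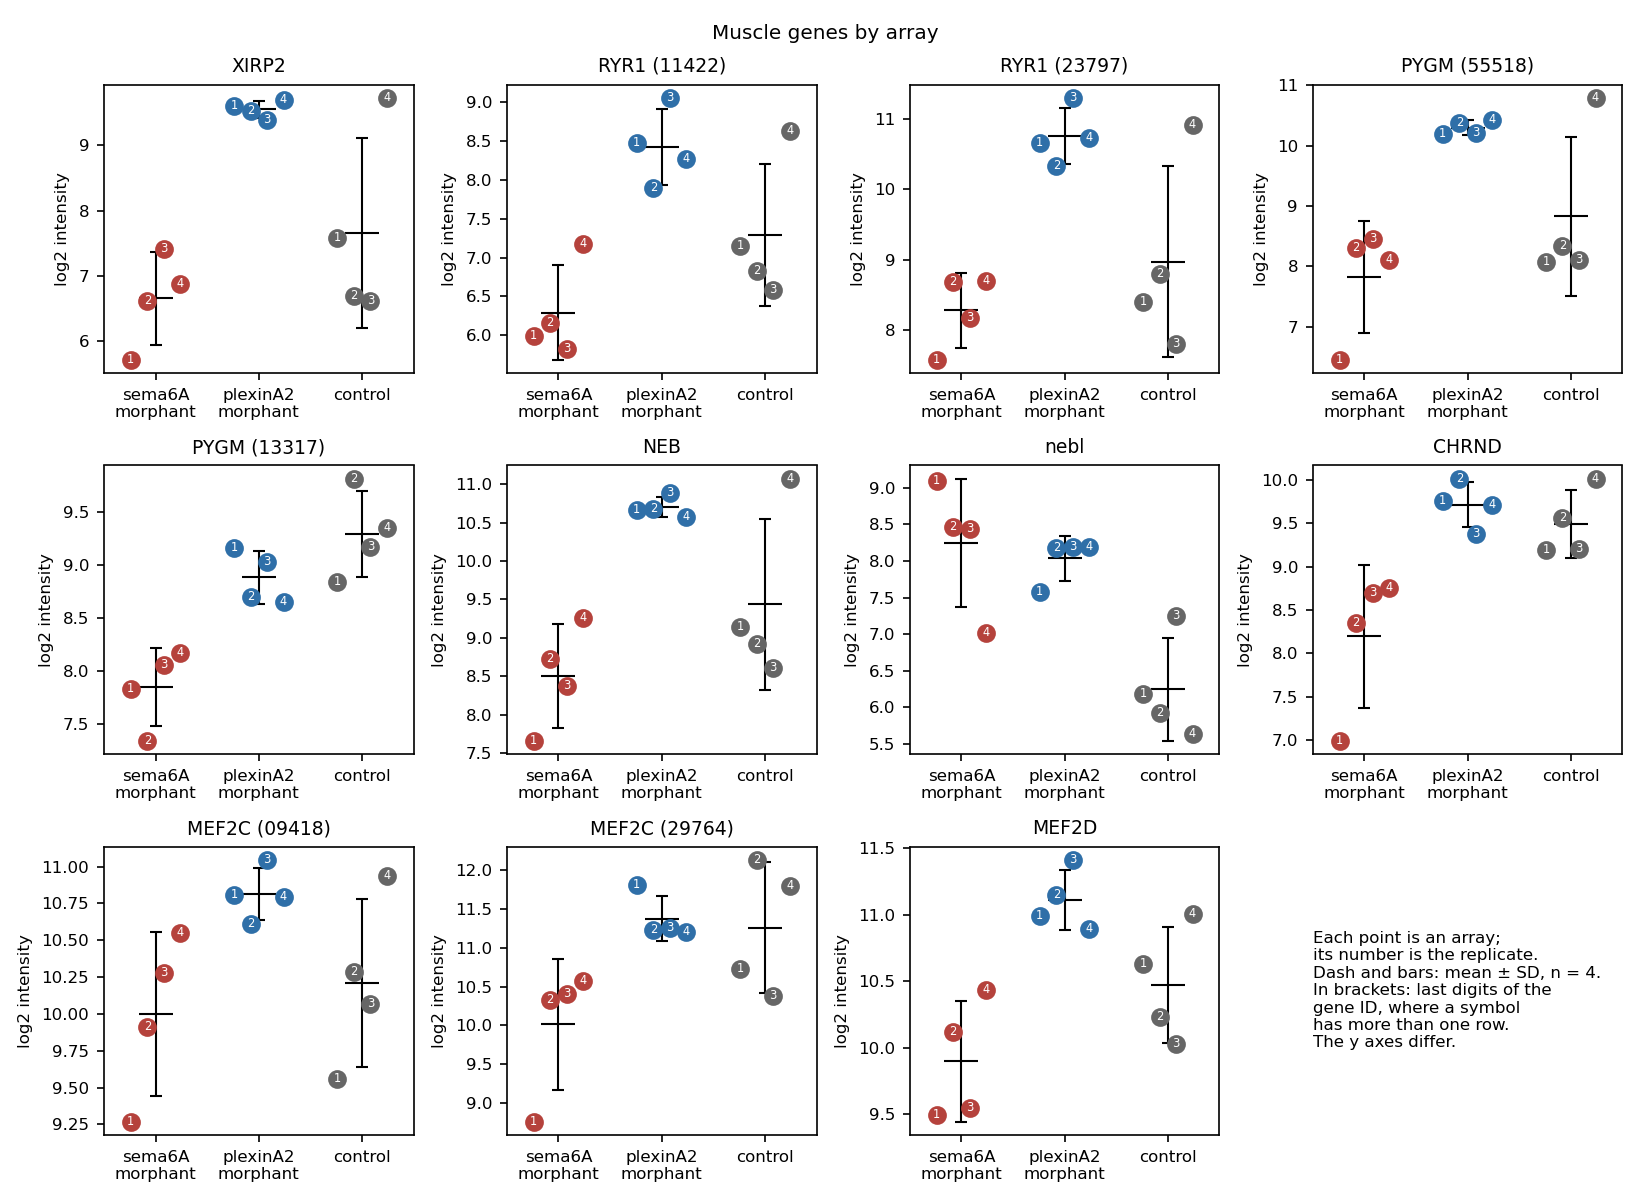
Log2 intensity of the 11 rows (y axis) in sema6A morphants, plexinA2 morphants and controls (x axis); points are arrays numbered by replicate, the dash and bars are the mean ± SD (n = 4). Control replicate 4 sits with the plexinA2 arrays in XIRP2, both RYR1 rows, NEB and PYGM (ENSDARG00000055518). In nebl the mean of each morphant group is above the control mean, though sema6A replicate 4 lies below control replicate 3.

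XIRP2 (ENSDARG00000071113) encodes a Xin repeat protein that binds actin where myofibrils are anchored to the membrane. Its log2 intensities were 5.71, 6.61, 7.41 and 6.87 in sema6A morphants, 9.59, 9.53, 9.39 and 9.70 in plexinA2 morphants, and 7.58, 6.68, 6.62 and 9.73 in controls (replicates 1 to 4). The sema6A arrays lay wholly below the plexinA2 arrays, 3 controls lay within the sema6A range or just above it, and control replicate 4 was above every plexinA2 array. The mean was 6.65 ± 0.71 in sema6A morphants and 9.55 ± 0.13 in plexinA2 morphants (SD, n = 4 each), a difference of −2.90, or 7.47-fold lower. In controls the mean was 7.65 ± 1.45, and 98.3% of all rows had a smaller control SD.

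NEB (ENSDARG00000032630) encodes nebulin, the giant protein that runs along the thin filament and sets its length. It had log2 intensities of 7.66, 8.72, 8.37 and 9.26 in sema6A morphants, 10.67, 10.68, 10.89 and 10.58 in plexinA2 morphants, and 9.14, 8.93, 8.60 and 11.07 in controls. Again the plexinA2 arrays were close together and above all sema6A arrays, and control replicate 4 was the highest of the 12. NEB was 4.59-fold lower in sema6A than in plexinA2 morphants.

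The gene nebl (ENSDARG00000021200) encodes nebulette, a shorter relative of nebulin that in mammals is known from the Z discs of heart muscle, and the mammalian gene also gives a LIM-domain product made outside muscle. Its log2 intensities were 9.09, 8.46, 8.43 and 7.02 in sema6A morphants, 7.57, 8.18, 8.20 and 8.19 in plexinA2 morphants, and 6.18, 5.92, 7.25 and 5.63 in controls. All plexinA2 arrays exceeded all controls, as in 7.27% of all rows, and 3 of the 4 sema6A arrays did, while sema6A replicate 4 lay below control replicate 3. The row was 4.01-fold higher in sema6A morphants than in controls (2.00 ± 0.41 on the log2 scale) and 3.46-fold higher in plexinA2 morphants than in controls (1.79 ± 0.41; SE, n = 4 per group). The difference between the sema6A and plexinA2 morphants was 0.22 ± 0.41, and it was below 0 without sema6A replicate 1. Control replicate 4, the highest control in XIRP2, NEB and RYR1, was the lowest of all 12 arrays in nebl, and sema6A replicate 1, the lowest in XIRP2 and NEB, was the highest in nebl.

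RYR1, the calcium release channel of the sarcoplasmic reticulum, had 2 rows with the same order of groups. In the first (ENSDARG00000023797) log2 intensities were 7.58, 8.69, 8.17 and 8.70 in sema6A morphants, 10.66, 10.33, 11.30 and 10.73 in plexinA2 morphants, and 8.40, 8.79, 7.80 and 10.91 in controls. In the second (ENSDARG00000011422) they were 5.99, 6.16, 5.83 and 7.18 in sema6A morphants, 8.48, 7.90, 9.06 and 8.27 in plexinA2 morphants, and 7.15, 6.82, 6.58 and 8.63 in controls. Both rows had control replicate 4 among the plexinA2 values, and no sema6A array reached a plexinA2 array. Sema6A morphants were lower than plexinA2 morphants 5.55-fold in the first row and 4.39-fold in the second. The second row and nebl were among the dimmest 25 percent of rows, where the background model used by the authors compresses differences.

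CHRND (ENSDARG00000019342) encodes the delta subunit of the muscle acetylcholine receptor. It had log2 intensities of 6.99, 8.35, 8.70 and 8.75 in sema6A morphants, 9.76, 10.01, 9.38 and 9.71 in plexinA2 morphants, and 9.19, 9.56, 9.21 and 10.02 in controls. Here the sema6A arrays lay wholly below both other groups, as in 3.78% of all rows against controls, and the plexinA2 and control arrays overlapped. The mean was 8.20 ± 0.83 in sema6A morphants, 9.71 ± 0.26 in plexinA2 morphants and 9.49 ± 0.39 in controls (SD, n = 4 each).

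PYGM, the glycogen phosphorylase of muscle, had 2 rows that differed in where the controls lay. In both, the sema6A arrays lay wholly below the plexinA2 arrays, as in 12.9% of all rows. In the row ENSDARG00000055518 log2 intensities were 6.45, 8.30, 8.45 and 8.11 in sema6A morphants, 10.19, 10.37, 10.21 and 10.43 in plexinA2 morphants, and 8.07, 8.34, 8.11 and 10.80 in controls, so that 3 controls lay among the sema6A values and control replicate 4 above the plexinA2 arrays. The row ENSDARG00000013317 had 7.83, 7.34, 8.05 and 8.17 in sema6A morphants, 9.17, 8.70, 9.03 and 8.66 in plexinA2 morphants, and 8.84, 9.82, 9.17 and 9.35 in controls. In this row the sema6A arrays also lay wholly below the controls, as in 3.78% of all rows. Neither control replicate 4 nor sema6A replicate 1 was at the edge of its group. Against controls it was 2.73-fold lower in sema6A morphants (−1.45 ± 0.30 on the log2 scale, SE), and −0.41 ± 0.30 in plexinA2 morphants. Both rows carry the same symbol in the gene name table, which does not say which paralogue each is.

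MEF2C and MEF2D encode MADS-box transcription factors that act with the myogenic regulators in fibre differentiation. MEF2D (ENSDARG00000040237) had log2 intensities of 9.49, 10.12, 9.54 and 10.43 in sema6A morphants, 10.99, 11.15, 11.41 and 10.90 in plexinA2 morphants, and 10.63, 10.23, 10.03 and 11.002 in controls. It was 2.32-fold lower in sema6A than in plexinA2 morphants. One MEF2C row (ENSDARG00000009418) ranged from 9.27 to 10.55 in sema6A morphants, from 10.61 to 11.05 in plexinA2 morphants and from 9.56 to 10.93 in controls. The other (ENSDARG00000029764) ranged from 8.76 to 10.57, from 11.21 to 11.81 and from 10.37 to 12.14 in the same groups. In both MEF2C rows the sema6A arrays lay below the plexinA2 arrays, the differences (−0.81 ± 0.33 and −1.36 ± 0.42) were smaller than in XIRP2 or RYR1, and the controls overlapped both morphants.

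**Figure D2:**
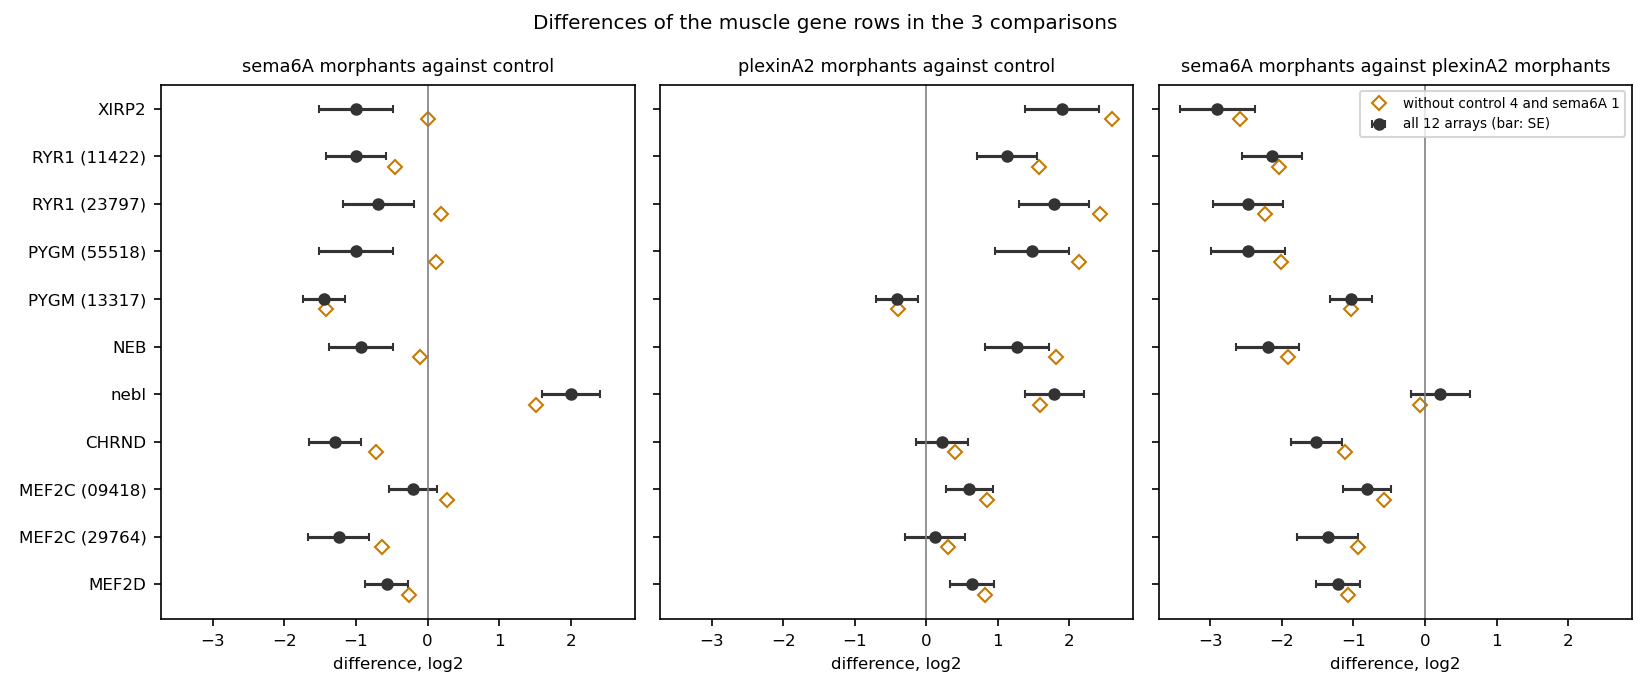
Log2 differences of the 11 rows (x axis) in the 3 comparisons; filled points with SE bars use all 12 arrays and open diamonds leave out control replicate 4 and sema6A replicate 1. RYR1 (ENSDARG00000023797) lies at −0.69 in sema6A morphants against controls with all arrays and at 0.19 without the pair, and CHRND at −1.29 and −0.72.

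Between the morphants, all 10 rows other than nebl were lower in sema6A than in plexinA2 embryos (49.8% of all rows were), with log2 differences of −2.90 to −0.81, and in all 10 the 4 sema6A arrays lay wholly below the 4 plexinA2 arrays. Such separation held in 12.9% of all rows. At an adjusted p under 0.05 in limma's fit over all rows 7 of 11 rows passed, all lower (XIRP2, both RYR1 rows, PYGM ENSDARG00000055518, NEB, CHRND and MEF2D), where 1.71% of all rows passed and 1.27% passed as lower. The median over the 10 rows was −1.83, beside 0.00 over all rows. Without sema6A replicate 1 it was −1.51. Passing varied with the array left out, for all rows as for these. Without plexinA2 replicate 1, 3 or 4, 0 of 11 rows passed (0.117%, 0.156% and 0.117% of all rows). Without sema6A replicate 3, 1 passed (0.195% of all rows). Without sema6A replicate 2 or plexinA2 replicate 2, 2 passed (0.292% of all rows each). Without control replicate 2, 9 passed (9.64% of all rows). With only the 2 morphant groups fitted, 9 passed as well (14.5% of all rows).

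In sema6A morphants against controls, the 10 rows were lower (45.1% of all rows were), with log2 differences of −1.45 to −0.21 and a median of −1.001 beside 0.07 over all rows. At the same threshold 2 of 11 rows passed (nebl higher, PYGM ENSDARG00000013317 lower), where 3.12% of all rows passed. The median was −0.39 without control replicate 4, −0.67 without sema6A replicate 1 and −0.18 without both. Without both, the difference was 0.00 for XIRP2, 0.19 and −0.46 for the RYR1 rows, 0.12 for PYGM ENSDARG00000055518 and −0.10 for NEB. It was −0.72 for CHRND, −0.26 for MEF2D and −0.64 for MEF2C ENSDARG00000029764. The other MEF2C row, ENSDARG00000009418, was at 0.28 there and at −0.21 with all arrays. In that fit PYGM ENSDARG00000013317 was at −1.42 and nebl at 1.52, and nebl did not pass. The PYGM row failed to pass without sema6A replicate 2, and neither row passed when only these 2 groups were fitted.

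In plexinA2 morphants against controls, 9 of the 10 rows were higher and PYGM ENSDARG00000013317 was lower (46.6% of all rows were lower), with a median of 0.89 beside 0.04 over all rows. One of 11 rows passed, nebl, where 2.86% of all rows passed. Without control replicate 4, 6 of 11 rows passed, all higher, where 6.35% of all rows passed, and the median was 1.21. XIRP2 then differed by 2.59 instead of 1.90, RYR1 by 2.43 instead of 1.78 and 1.57 instead of 1.13, PYGM ENSDARG00000055518 by 2.13 instead of 1.47, and NEB by 1.81 instead of 1.27. The nebl row no longer passed in the fits that dropped plexinA2 replicate 2, 3 or 4 or control replicate 1. Both comparisons with controls share the 4 control arrays.

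The spread within groups was smallest in plexinA2 morphants. The median SD of the 10 rows was 0.64 in sema6A morphants, 0.24 in plexinA2 morphants and 0.88 in controls, on the log2 scale, against medians over all rows of 0.42, 0.30 and 0.54. The plexinA2 SDs of XIRP2, PYGM ENSDARG00000055518 and NEB were 0.13, 0.12 and 0.13, and 7.25%, 5.73% and 7.89% of all rows had a smaller SD in that group. In controls the same 3 rows had SDs of 1.45, 1.32 and 1.11, larger than those of 98.3%, 96.8% and 93.3% of rows. The RYR1 rows were less tight in plexinA2 morphants, with SDs of 0.40 and 0.49, above those of 76.9% and 89.1% of rows.

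Over all 12 arrays, the rows mostly moved together. Over the 45 pairs of the 10 rows the median Pearson r across 12 arrays was 0.807, from 0.405 to 0.970, and 0.655 with group means removed, from −0.054 to 0.938. These are descriptions of chosen rows that share the same arrays. All r values of this paragraph and the next include sema6A replicate 1 and control replicate 4. These were the lowest and the highest array of their groups in 8 of the 10 rows each. The r values were not recomputed without them, so co-movement among the remaining arrays was not tested. Each row was also set against the mean of the others: NEB was closest (r = 0.978) and PYGM ENSDARG00000013317 farthest (r = 0.546, and 0.210 with group means removed). For nebl the r was −0.306 over the 12 arrays and −0.749 with group means removed, so within groups it tended to be low where the others were high.

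Among named rows outside the set, those most like the mean profile of the 10 rows over 12 arrays were znf516 (r = 0.977), KIF26A (0.971), spegb, actn3b and pou2f2b (each 0.967), FREM1 (0.966), MATN4 (0.962) and EPHA3 (0.961). Of these, spegb encodes a kinase of striated muscle and actn3b the alpha-actinin of fast fibres, and MATN4 is a matrix protein gene. With group means removed their r lay between 0.901 and 0.975. Most like nebl were HSPH1 (0.955), a chaperone gene of the heat shock family, cbx7a (0.942), mat2al (0.939), PARP3 (0.934), TNFAIP6 and fhip2b (each 0.925), RNF150 (0.921) and gig2p (0.917), and with group means removed their r was 0.723 to 0.891. These 8 rows were picked for their likeness to nebl over the same arrays, so sharing its direction follows from the choice. They were higher than controls by 0.74 to 2.89 in sema6A and by 0.52 to 2.64 in plexinA2 morphants.

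**Figure D3:**
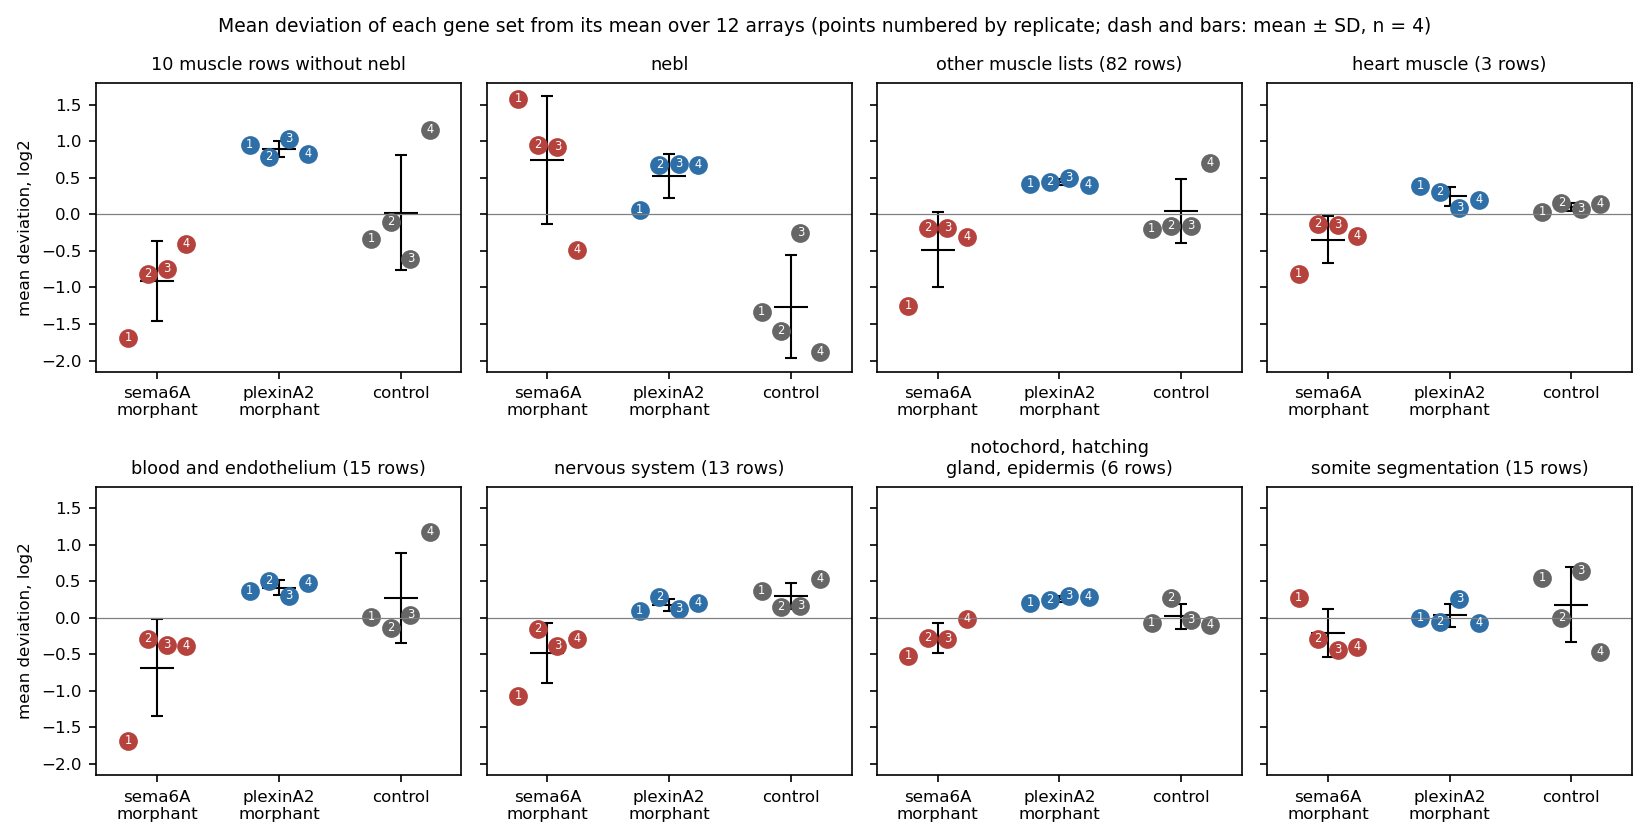
Mean deviation of each gene set from its own mean over 12 arrays (y axis, log2) for sema6A morphants, plexinA2 morphants and controls (x axis), with points numbered by replicate and mean ± SD (n = 4). The 10 muscle rows run from −1.70 to −0.41 in sema6A morphants, from 0.78 to 1.03 in plexinA2 morphants and from −0.61 to 1.15 in controls.

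A further 82 rows came from 7 lists of muscle genes, of which 99 of 258 names had a row. Their mean deviation lay between −1.25 and −0.18 in sema6A morphants, between 0.40 and 0.49 in plexinA2 morphants, and between −0.20 and 0.70 in controls, with sema6A replicate 1 lowest and control replicate 4 highest. Against plexinA2 morphants, 76 of the 82 were lower in sema6A morphants (median −0.91), 44 of them with no overlap (12.9% of all rows). By limma's adjusted p 0 rose, 3 fell and 79 did not pass, where 1.71% of all rows passed. At an unadjusted p under 0.05, 1 was higher and 49 lower, beside 1376 of all 5134 rows in either direction. Against controls, in sema6A morphants 0 rose, 1 fell and 81 failed to pass (median −0.51, and 0.03 without both arrays), where 3.12% of all rows passed. At an unadjusted p under 0.05, 1 was higher and 18 lower, beside 1056 of all 5134 rows in either direction. In plexinA2 morphants against controls 2 rose, 0 fell and 80 did not pass (median 0.45), where 2.86% of all rows passed. At an unadjusted p under 0.05, 8 were higher and 0 lower, beside 885 of all 5134 rows in either direction. Without control replicate 4, 7 of the 82 rows rose in plexinA2 morphants against controls, where 6.35% of all rows passed. There, 0 passed without control replicate 1 or 3 or without any 1 plexinA2 array (1.54% to 1.87% of all rows). In sema6A against plexinA2 morphants 15 fell without control replicate 4 (4.83% of all rows passed) and 23 without control replicate 2 (9.64%). In that comparison 0 passed without sema6A replicate 2 or 3 or without any 1 plexinA2 array (0.117% to 0.292% of all rows). The number of rows that passed thus changed over the whole table too.

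The rows that passed were few and not all specific to muscle. Both rows of TTN, the titin gene, whose protein spans the half-sarcomere as a spring, rose in plexinA2 morphants against controls, by 1.97 ± 0.47 (ENSDARG00000000563, limma adjusted p = 0.026) and 1.67 ± 0.39 (ENSDARG00000028213, adjusted p = 0.0215; SE, n = 4 per group). The first also fell by 1.94 ± 0.47 in sema6A against plexinA2 morphants (adjusted p = 0.0437), and the second was at −1.49 ± 0.39 (adjusted p = 0.0535). Log2 intensities of the first were 9.32, 7.99, 7.43 and 8.15 in sema6A morphants, 10.41, 9.89, 10.48 and 9.87 in plexinA2 morphants, and 7.87, 7.34, 7.69 and 9.88 in controls. Unlike XIRP2 and NEB, TTN was highest among the sema6A arrays in replicate 1. CDH15, the cadherin of myoblasts, fell by 1.88 ± 0.43 in sema6A against plexinA2 morphants (adjusted p = 0.0395), and TCF12, a broadly expressed partner of the myogenic factors, was 2.47-fold lower (adjusted p = 0.0286). TCF12 also fell against controls (−1.09 ± 0.28, adjusted p = 0.0387). Each of these calls was lost in 6 to 9 of the 12 fits without 1 array, with largest adjusted p values of 0.106 to 0.132. The TCF12 call against controls was also lost with the replicate number as a block, with only these 2 groups fitted, and without control replicate 4 and sema6A replicate 1 (adjusted p = 0.0633).

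**Figure D4:**
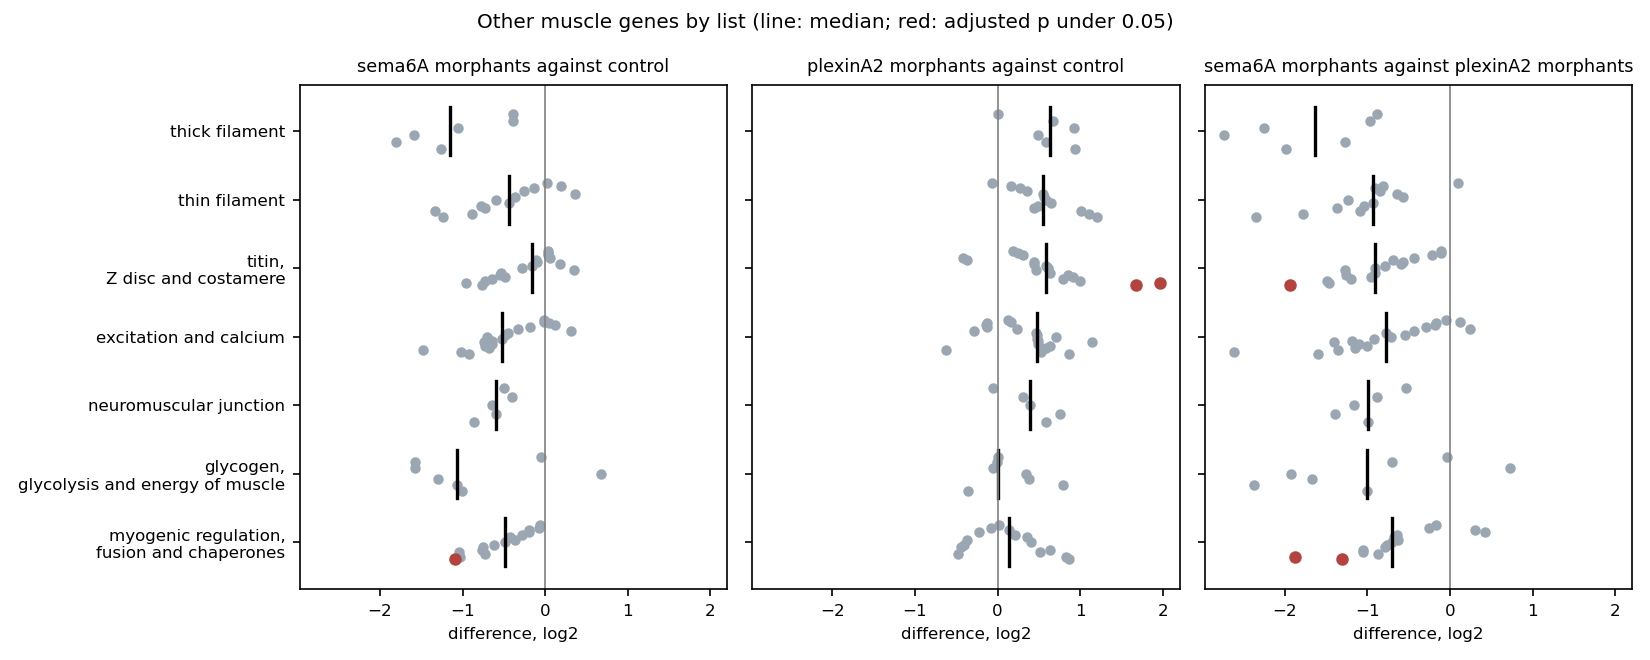
Log2 differences (x axis) of the other muscle genes in 7 lists (y axis) for the 3 comparisons; each point is a row, the line is the list's median and red marks an adjusted p under 0.05. Medians in sema6A against plexinA2 morphants run from −1.63 for the thick filament to −0.71 for myogenic regulation.

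By list, sema6A against plexinA2 morphants, 6 thick filament rows had a median of −1.63, with MYOM1, the M-band protein myomesin, at −1.99 ± 0.55 (limma adjusted p = 0.0564) and the fast myosin heavy chain myhz1.3 at −2.73 ± 0.85 (adjusted p = 0.0767). Thin filament rows (13) had a median of −0.94, with TNNT3 (ENSDARG00000030270), fast troponin T, at −2.35 ± 0.69 (adjusted p = 0.0676). The other TNNT3 row (ENSDARG00000068457) was at −0.85 (adjusted p = 0.292). The 17 titin, Z disc and costamere rows were all lower (median −0.91), with the filamin gene FLNC (ENSDARG00000018820) at −1.47 ± 0.38 (adjusted p = 0.0535). The other FLNC row (ENSDARG00000018566) was at −0.69 (adjusted p = 0.255). Excitation and calcium rows (19) had a median of −0.78, with CACNA1S, the voltage sensor that opens RYR1, at −1.60 ± 0.44 (adjusted p = 0.0564) and the calcium pump atp2a1 at −2.62 ± 0.75 (adjusted p = 0.0653). The 5 rows of the neuromuscular junction were lower too (median −0.99), the 2 CHRNB1 rows, partners of CHRND in the receptor, at −0.99 ± 0.29 and −1.39 ± 0.46 (adjusted p = 0.0668 and 0.0862). For the 7 rows of glycogen and energy the median was −1.01, with muscle creatine kinase ckma at −2.37 ± 0.73 (adjusted p = 0.0745). The 15 rows of myogenic regulation had −0.71. Sema6A replicate 1 weighed on several of these values. Without it myhz1.3 was at −1.55, atp2a1 at −1.46 and ckma at −1.24, and the medians were −0.96 for the thick filament, −0.58 for the thin filament and −0.60 for the neuromuscular junction. Apart from TTN, CDH15 and TCF12, none of these 82 rows passed in that comparison with limma.

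Against controls, the glycogen and energy list had a median of −1.07 in sema6A morphants and 0.00 in plexinA2 morphants, with PPP1R3C (ENSDARG00000071005), a glycogen-targeting phosphatase subunit gene, at −1.07 ± 0.32 (limma adjusted p = 0.071) and −0.37 ± 0.32 (adjusted p = 0.598). In sema6A morphants against controls this PPP1R3C row was at −1.27 without control replicate 4 (limma adjusted p = 0.0444). It was at −1.23 without sema6A replicate 1 (adjusted p = 0.0663) and at −1.43 without both (adjusted p = 0.0272). The other PPP1R3C row (ENSDARG00000014554) was at −0.045 with all arrays (limma adjusted p = 0.966) and at −0.585 without both (adjusted p = 0.383). The titin, Z disc and costamere list had −0.16 in sema6A and 0.58 in plexinA2 morphants. Without control replicate 4 and sema6A replicate 1, the medians in sema6A morphants against controls were −0.15 for glycogen and energy, 0.08 for titin, Z disc and costamere, 0.10 for the thick filament and 0.14 for the thin filament. For excitation and calcium the median was 0.06 there, and for the neuromuscular junction −0.10. Myogenic regulation was at −0.28, against −0.48 with all arrays. Whether the lists differ from one another was not tested.

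Markers of other cell types and stages moved with the muscle rows in part. In sema6A against plexinA2 morphants, 14 of 15 blood and endothelium rows were lower (median −1.12, 2 fell by limma's adjusted p). So were 12 of 13 nervous system rows (median −0.57, 1 fell) and all 6 notochord, hatching gland and epidermis rows (median −0.62, 0 fell). The 82 other muscle rows had a median of −0.91 there, and 1.71% of all rows passed. The 15 blood and endothelium rows had mean deviations of −1.68 to −0.29 in sema6A morphants, 0.30 to 0.51 in plexinA2 morphants and −0.14 to 1.18 in controls, again with sema6A replicate 1 lowest and control replicate 4 highest. Their summed intensities were 9630 to 23400, 28300 to 37200 and 28400 to 61400 in the same groups. In sema6A morphants against controls 3 of 15 fell by limma's adjusted p, where 3.12% of all rows passed. Nervous system rows (13) had −1.07 to −0.15 in sema6A morphants, 0.10 to 0.28 in plexinA2 morphants and 0.15 to 0.53 in controls, with summed intensities of 25900 to 33900, 39700 to 46100 and 35700 to 52200, and 2 fell in sema6A morphants against controls. The 6 notochord, hatching gland and epidermis rows had −0.52 to −0.02, 0.20 to 0.30 and −0.10 to 0.28, with sums of 25900 to 42500, 44200 to 52900 and 32500 to 74000 and 0 passed in the same comparison (0 at an unadjusted p under 0.05). The lowest single intensity was 56.2 in the nervous system list (sema6A morphants), 59.2 in the blood list (controls) and 525 in the notochord list (sema6A morphants). The lowest value of the whole table was 26.3. Of the heart list only TNNT2, MYL7 and GATA5 had rows and none passed (0 at an unadjusted p under 0.05 against controls), at −0.73, −0.56 and −0.06 in sema6A morphants and 0.35, 0.02 and 0.06 in plexinA2 morphants against controls. Without control replicate 4 and sema6A replicate 1, the median of the blood rows in sema6A morphants against controls was −0.16, against −0.84 with all arrays, and that of the nervous system rows −0.57, against −0.60. In the nervous system list too, sema6A replicate 1 was the lowest array and control replicate 4 the highest. In sema6A against plexinA2 morphants without sema6A replicate 1, the medians were −0.86 for blood and endothelium and −0.25 for the nervous system. They were −0.41 for notochord, hatching gland and epidermis and −0.63 for the 82 other muscle rows. The part of these markers in the differences of the muscle rows was not tested.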

How the data were processed

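Total RNA was extracted with Trizol, checked on a Bioanalyzer and labelled with Cy3 by NimbleGen, per the labels' protocols. The submitters' processing notes name RMA (background correction, normalization between arrays, probe summary) and no version. The deposited intensity of a row is linear, and values ran from 26.3 to 42222. RMA compresses differences among dim probes and brings the arrays to a common level. Over the deposited rows the median intensity still ran from 608 (control replicate 2) to 708 (plexinA2 replicate 4). The 4 arrays per group limit the precision. No build is named. Symbols came from a gene name table that matched 4349 of 5134 rows. List names were matched exactly, by case, or without the paralogue letter a or b, so paralogues can be mixed.

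Intensities were transformed to log2 with no pseudocount. One limma model (lmFit and eBayes, limma 3.58.1, R 4.3.3) held all 12 arrays, with group as its term (9 residual degrees of freedom). Tests were two-sided with Benjamini-Hochberg adjustment over 5134 rows, and a row passed at an adjusted p under 0.05. The fit was also run on simulated data with independent rows and the same spread in every group. The arrays here differ from that setting, so the run does not show how reliable the calls are. The members and lists were chosen with earlier results of these data known. Named were all member rows, list rows that passed or were among the 3 of smallest p, and the 8 rows most like each profile. Genes of the somite list were named after their values were seen. Deviations of same-numbered arrays from their group means had r from −0.242 to 0.361. Differently numbered arrays were not compared in this way, so a pairing by number was not excluded. The main model held no term for it. Alternatives were a replicate block, fits of 2 groups, a filter on dim rows, quantile normalization, array weights, another prior, a pseudocount of 50, and fits without 1 array or without control replicate 4 and sema6A replicate 1.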

Additional observations from a re-analysis of the deposited data

Results flagged for a closer look

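Within groups of 4 arrays, 7 of 39 sets of values held an array far from the other 3, by a gap above Dixon's 95% limit for the group's range. Chance alone flags about 1 in 20 independent sets. These 39 share the same arrays and hold rows that moved together and means over rows, so their count cannot be set against that rate. PYGM (ENSDARG00000055518) was 6.45 in sema6A replicate 1, with 8.11 the nearest, and 10.80 in control replicate 4, with 8.34 the nearest. MEF2C (ENSDARG00000029764) was 8.76 in sema6A replicate 1 and 11.81 in plexinA2 replicate 1. The row of nebl was 7.57 in plexinA2 replicate 1, with 8.18 the nearest. The mean deviation of the 82 other muscle rows was −1.25 in sema6A replicate 1 and 0.70 in control replicate 4.

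In 6 of the 11 rows, against 3.37% of all 5134 rows, every sema6A array lay below the control mean and every plexinA2 array above it. The differences between sema6A and plexinA2 morphants were −2.90 for XIRP2, −2.13 (ENSDARG00000011422) and −2.47 (ENSDARG00000023797) for RYR1, −2.47 for PYGM (ENSDARG00000055518), −2.20 for NEB and −1.22 for MEF2D. The same held for the mean deviation of the 10 rows other than nebl, with a difference of −1.81, and for that of the 82 other muscle rows, with −0.92. Taken singly, 18 of these 82 rows (22%) held the pattern. In the fit over all rows with all arrays, the 6 rows passed in sema6A against plexinA2 morphants (1.71% of all rows did). They passed in neither comparison with controls. Their passing is no independent test, since they had been chosen for these differences. The differences of the 2 mean deviations were not tested. The control mean includes control replicate 4, and the pattern of the 6 rows depended on that array. In each of the 6, the highest sema6A array lay above the mean of control replicates 1 to 3. These values were 7.41 and 6.96 for XIRP2, 9.26 and 8.89 for NEB, and 10.43 and 10.29 for MEF2D. The share of all rows with the pattern was not recomputed without this array.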

How the results depend on the processing

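The number of rows that passed over the whole table, with sema6A morphants against controls, plexinA2 morphants against controls and sema6A against plexinA2 morphants in that order, was 160, 147 and 88. Without 1 array it ranged from 66 to 226, from 79 to 326 and from 6 to 495. It was 1407, 1629 and 2273 with array weights. With the 2 groups compared alone it was 47, 132 and 743. Without control replicate 4 and sema6A replicate 1, chosen after seeing the data, it was 171, 509 and 415. With the replicate number as a block it was 158, 130 and 144. For sema6A against plexinA2 morphants it was 158 (68 higher, 90 lower, against 23 and 65) after quantile normalization and 136 (52 and 84) with a pseudocount of 50. Of 774 recomputed differences and medians of the muscle rows 764 moved by less than 1 SD, 10 by more, and none that had passed turned its sign. All 10 were in sema6A morphants against controls. Several alternatives, such as another prior or leaving out an array of the third group, cannot change a row's difference of group means. The SD also included the 2 arrays that stood apart, so the count of 764 does not measure robustness. The dim-row filter left out nebl and RYR1 ENSDARG00000011422, so these have no value there. The cause of these shifts was not tested.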

Other observations

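Genes of somite formation ran the other way on the 2 arrays that stood apart in muscle genes. Over 15 rows of segmentation and paraxial mesoderm genes, fixed as a list and picked out after their values were seen, sema6A replicate 1 had a mean deviation of 0.27, while the other sema6A arrays lay between −0.44 and −0.29. Control replicate 4 had −0.46, while the other controls lay between −0.002 and 0.65, and the plexinA2 arrays between −0.07 and 0.26. Sema6A replicate 1 was the highest sema6A array in 13 of the 15 rows (29.2% of all rows), and control replicate 4 the lowest control in 9 of the 15 (21.4% of all rows). In the presomitic mesoderm factor gene tbx16 log2 intensities were 12.78, 11.78, 12.01 and 10.91 in sema6A morphants and 13.15, 11.50, 13.10 and 11.17 in controls. The segment boundary gene mespba had 10.57, 10.25, 10.07 and 10.02 in sema6A morphants and 10.89, 10.97, 11.18 and 9.34 in controls. Its relative mespaa had 9.18, 7.66, 8.23 and 8.22 in sema6A morphants and 9.51, 10.16, 9.99 and 6.70 in controls. WNT3A, a signal gene of the tail bud in the same list, had 10.49, 9.87, 10.38 and 8.63 in sema6A morphants and 9.38, 9.56, 9.63 and 10.30 in controls, and so was highest among the controls in replicate 4. So were NRARP (10.61, 10.83, 10.67 and 10.88 in controls) and HES6 (8.07, 6.59, 8.07 and 8.43 in controls). None of the 15 rows passed in any of the 3 comparisons with limma. At an unadjusted p under 0.05, 3 were lower in sema6A morphants against controls (1056 of all 5134 rows in either direction). In plexinA2 morphants against controls 1 was higher and 1 lower (885 of all rows), and 1 was lower in sema6A against plexinA2 morphants (1376 of all rows).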
